A study of Mus musculus with 10 samples.

Results

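The 10 genes described here, Ttr, Aqp1, Kl, Folr1, Otx2, Clic6, Sostdc1, Msx1, Lmx1a and Enpp2, mark the choroid plexus and the dorsal midline of the embryonic forebrain. They were chosen by name, and each was found through its Entrez gene ID as 1 probe set, so that all 10 were measured, of 21225 probe sets in all. Forebrain RNA was compared between 5 embryos of dams eating powdered chow (Bioserv F3197, a purified diet) and 5 embryos of dams eating pelleted chow (Teklad 2918), with 1 array per embryo and each embryo from a different litter. All embryos were wild-type at embryonic day 15.5, carried by C57Bl/6J dams that had been mated with Ts1Cje males, a model of Down syndrome, and the dams ate the diet from the time of first breeding. Per the study's methods the powdered chow held more carbohydrate and n-3 fatty acids and no isoflavones, and less of most minerals and vitamins, folate and vitamin A among them. The comparison asks whether the transcriptome of the fetal brain differs between the chows. Per the study the sires ate the same chow as the dams, so the mother's diet did not vary alone.

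The choroid plexus is the folded epithelium that hangs into each ventricle and secretes cerebrospinal fluid. It grows from the dorsal midline, where the roof plate and, next to it, the cortical hem release bone morphogenetic proteins (BMPs) and Wnt proteins that set midline tissue apart from the cortex. Transcription factors such as Lmx1a, Msx1 and Otx2 act early in this tissue, and the mature epithelium is known for very strong expression of Ttr together with channels, transporters and receptors such as Aqp1, Clic6, Folr1 and Kl.

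Values are the log2 expression values deposited by the authors, and differences are powdered minus pelleted chow with the standard error (SE) from limma, which was fitted to all probe sets with Benjamini-Hochberg adjustment. A gene was called higher or lower at an adjusted p under 0.05. By this rule 43.1% of all probe sets were called, 21.2% as higher and 21.8% as lower, so a call by itself sets no gene apart in these arrays. The lower quartile by array was 6.33 to 6.51 on powdered chow and 6.38 to 6.53 on pelleted chow, and the median SE of a difference was 0.0723. The animals on powdered chow are numbered 87 to 115 and those on pelleted chow 5 to 15, with no slide or scan date in the labels, so that diet and any difference in preparation cannot be told apart. The p-values weigh the diet difference against the spread between embryos of one diet, which limma moderates with all probe sets. As each embryo came from its own litter, that spread includes the spread between litters. Pelleted chow animals 05 and 11 stood apart from the other arrays of their diet in several of the genes below, and values without them are given where they change a result.

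Of the 10 genes, 5 fell on powdered chow (Sostdc1, Otx2, Kl, Aqp1 and Msx1), Clic6 rose, and Ttr, Enpp2, Lmx1a and Folr1 did not pass the test. The 6 called genes are 60% of the 10, beside 43.1% of all probe sets called (21.2% higher and 21.8% lower). The sizes were small. The median absolute difference was 0.23 over the 10 genes and 0.17 over all probe sets, and the median difference was -0.07 over the 10 genes and -0.02 over all probe sets. By limma, 0 of the 10 passed the limits that the methods set for differential expression (more than 1.5-fold, with p under 0.001 before adjustment and under 0.01 after it), which 8.27% of all probe sets did. At an unadjusted p under 0.05 limma found 8 of the 10, against 50.4% of all probe sets, and the methods' t-test also put 0 past those limits. The values of the diets did not overlap for 2 of the 10, Sostdc1 and Aqp1, against 32.6% of all probe sets. In whole forebrain, fewer cells of a type and less RNA per cell cannot be told apart.

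**Figure D1:**
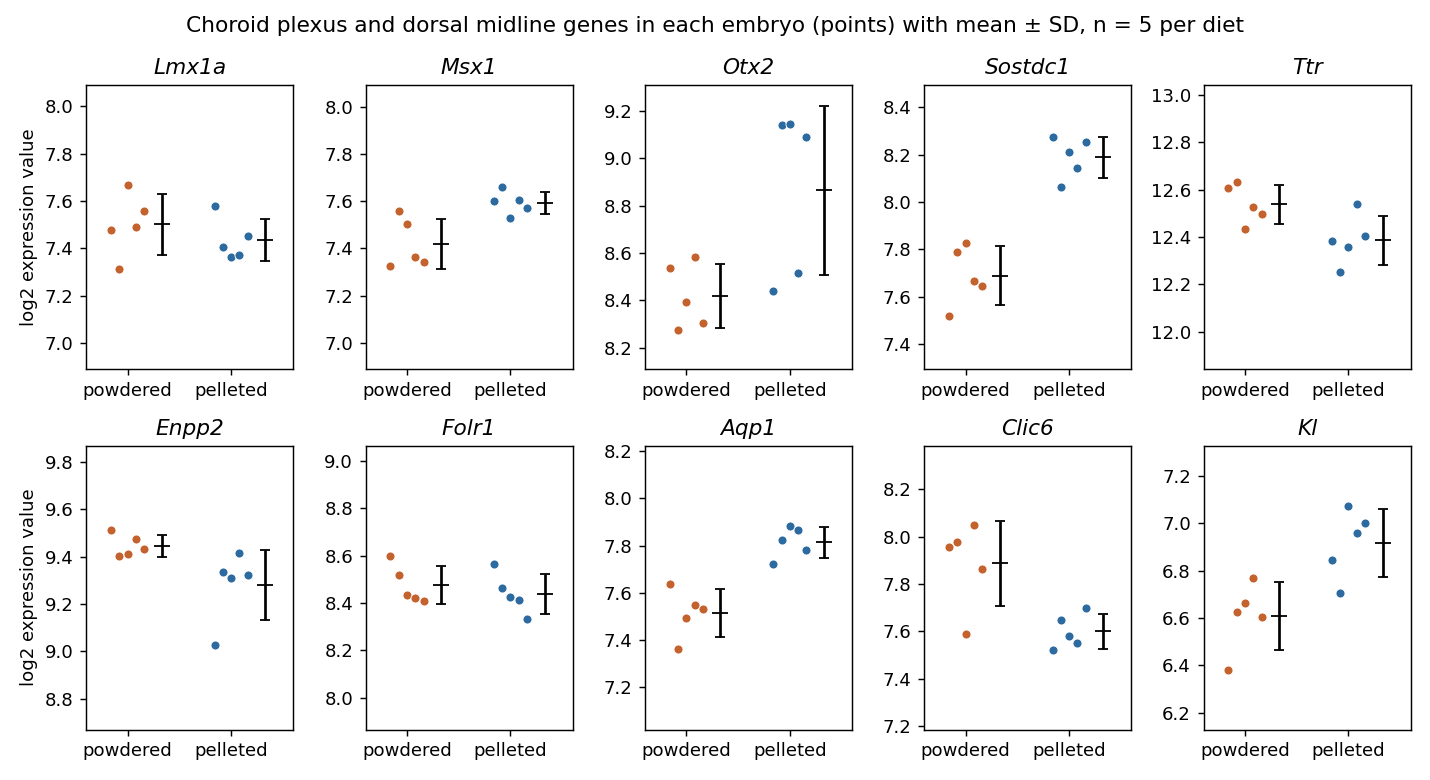
Log2 expression value (vertical axis, each panel spanning the same range) of the 10 choroid plexus and dorsal midline genes in each embryo, powdered chow on the left and pelleted chow on the right of each panel; bars show mean ± SD, n = 5 per diet. Sostdc1 and Aqp1 do not overlap between the diets, and Otx2 in pelleted chow embryos falls at 8.44 and 8.51 in 2 embryos and at 9.09 to 9.14 in the other 3.

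Of the 3 transcription factors, Otx2 and Msx1 fell and Lmx1a did not pass the test. Otx2, a homeodomain factor needed for choroid plexus formation and also active in the midbrain and eye, had values of 8.53, 8.28, 8.39, 8.58 and 8.30 in powdered chow animals 87, 88, 108, 111 and 115, against 9.14, 9.14 and 9.09 in pelleted chow animals 07, 09 and 15. Pelleted chow animals 05 and 11, at 8.44 and 8.51, lay inside the powdered chow range. The means were 8.42 ± 0.14 on powdered chow and 8.87 ± 0.36 on pelleted chow (SD, n = 5 each), a difference of -0.45 (SE 0.14, limma adjusted p = 0.0210). This call was lost when any of pelleted chow animals 07, 09 and 15 or powdered chow animal 88 was left out (limma adjusted p = 0.0541, 0.0569, 0.0566 and 0.0502) and with the methods' t-test (adjusted p = 0.0701) or its version for unequal variances (adjusted p = 0.100).

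RefSeq lists 4 transcript starts for Otx2, and the array gives 1 value for the gene as a whole. The bases before the farthest of these starts are shown because Otx2 had the widest spread among the 10 genes on pelleted chow, and because the letters bound by homeodomain factors can be looked for there. The window is the 250 bases before the start, chr14:48667645-48667894 on the minus strand of GRCm38.p6, 5′ to 3′, with matches to the homeodomain letters TAATTA and TAATTG, on either strand, in capitals.
Otx2: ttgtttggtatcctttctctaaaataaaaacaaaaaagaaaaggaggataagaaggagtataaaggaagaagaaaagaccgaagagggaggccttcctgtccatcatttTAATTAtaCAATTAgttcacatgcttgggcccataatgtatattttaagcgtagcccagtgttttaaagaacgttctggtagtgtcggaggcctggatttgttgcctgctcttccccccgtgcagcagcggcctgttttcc
The 2 matches begin 141 and 133 bases before the start, and the second is TAATTG on the opposite strand. TAATCC, the core that OTX2 itself and its relatives bind, is not in this window, and another Otx2 window, chr14:48665060-48665359, held 1 TAATCC and 3 TAATTA. In the 300-base RefSeq windows, which run from 250 bases before a start to 50 after it, TAATTA on either strand was found in 5.29% of all 32851, TAATTG in 8.0% and TAATCC in 7.06%. Windows were matched for 5 of the 10 genes (Lmx1a, Msx1, Kl, Aqp1 and Otx2), 8 windows in all. TAATCC was in 1 of the 8, TAATTA in 2 and TAATTG in 2, all of them Otx2 windows. A match is a description of letters and was not tested as a binding site.

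Some markers of the midbrain and thalamus had the pattern of Otx2 in the pelleted chow embryos, and others did not. En2, a midbrain and anterior hindbrain factor that was named after its values were seen, had values of 6.26, 6.09, 6.71, 6.74 and 6.48 on powdered chow (animals 87, 88, 108, 111 and 115), against 6.44 and 6.48 in pelleted chow animals 05 and 11 and 7.74, 8.04 and 7.40 in animals 07, 09 and 15. The 3 pelleted chow embryos with high Otx2 were therefore also the 3 with high En2. En1, its paralog, was 6.72 to 7.20 on powdered chow and, on pelleted chow, 7.15 and 7.34 in animals 05 and 11 and 7.50 to 7.82 in the other 3. Of the 9 midbrain markers 0 were higher and 3 lower on powdered chow by limma (En1, En2 and Pax8), and En2 did not pass the test under 11 of 18 alternatives (adjusted p up to 0.152). The mean of the 9 ran from 7.36 to 7.65 on powdered chow and from 7.48 to 7.86 on pelleted chow, with animals 05 and 11 at 7.48 and 7.59. Pax5 was 6.81 and 6.93 in animals 05 and 11 and 7.20 to 7.48 in the other 3. Foxa1 was 6.99 and 7.18 there and 7.24 to 7.26 in the other 3. Th, Pitx3, Pax8, Foxa2 and Nr4a2 did not follow. Among the pelleted chow embryos Foxa2 was highest in animal 05 (7.69) and Nr4a2 in animal 11 (10.52). Of the thalamus markers, Shox2 was 6.23 and 6.92 in pelleted chow animals 05 and 11 and 7.46 to 7.86 in the other 3, and Irx2 was 8.31 and 8.57 there and 8.74 to 9.02 in the other 3. Lhx9 was 9.43 in both and 9.60 to 9.98 in the other 3, and Irx1 was 7.31 and 7.83 there and 7.84 to 8.08 in the other 3. Not all thalamus markers followed, and Gbx2 and Lhx2 were highest in animal 11 (8.51 and 10.54) among the pelleted chow embryos. The mean of the 8 thalamus markers was 8.37 to 8.49 on powdered chow and, on pelleted chow, 8.27 and 8.53 in animals 05 and 11 and 8.56 to 8.73 in the other 3. Pax5, Foxa1, Th, Pitx3, Foxa2, Nr4a2, Shox2, Irx2, Lhx9 and Irx1 were named after their values were seen.

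Probe sets on neither list also had the pattern of Otx2. Likeness to Otx2 was measured as the correlation of deviations from the diet mean over the 10 arrays, a description chosen after the values of Otx2 were seen. The probe set most like it was Dcbld1 (Pearson r = 0.982, Spearman rho = 0.939), at 8.45 and 8.48 in pelleted chow animals 05 and 11 and 8.66 to 8.71 in the other 3. The next were Clgn, Nt5dc3, Pcdhb22 and Adsl, with r between 0.971 and 0.973. None of the 10 most alike probe sets is on the midbrain list, but that list holds only 9 of 21225 probe sets, so this tells nothing. Array weights estimated over all probe sets were 0.411 and 0.47 for animals 05 and 11 and 1.39 to 2 for the other 3 arrays of pelleted chow. With these weights the Otx2 difference was -0.63 (limma adjusted p = 3.41e-04). The part of tissue boundaries or array quality in the Otx2 difference was not tested.

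**Figure D2:**
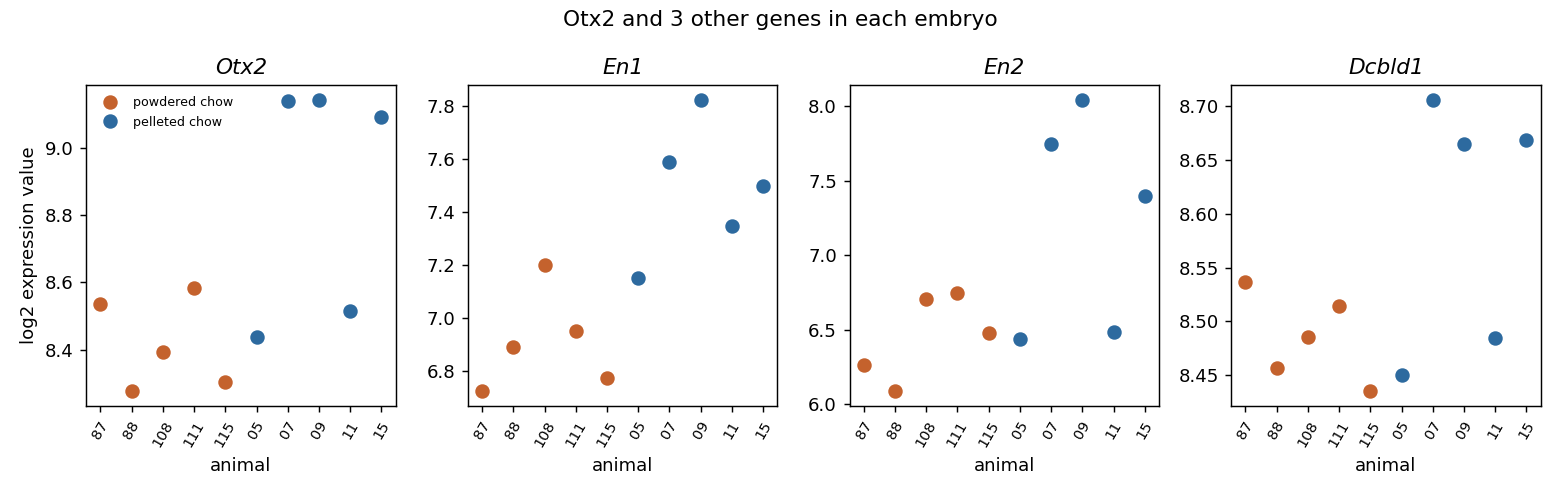
Log2 expression value (vertical axis, its own range in each panel) of Otx2, the midbrain markers En1 and En2, and Dcbld1, the probe set most like Otx2, in each embryo; powdered chow animals 87 to 115 come first and pelleted chow animals 05 to 15 after them. In pelleted chow animals 05 and 11 Otx2, En2 and Dcbld1 lie within the range of powdered chow, and in animals 07, 09 and 15 they lie above them.

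Msx1, a homeodomain factor that BMPs induce in the dorsal midline, had values of 7.32, 7.56, 7.50, 7.36 and 7.34 on powdered chow, against 7.60, 7.66, 7.53, 7.60 and 7.57 on pelleted chow. Only powdered chow animal 88 overlapped the pelleted chow range. The difference was -0.17 (SE 0.06, limma adjusted p = 0.0304), and it did not pass the test without pelleted chow animal 07 or powdered chow animals 87, 111 or 115 (adjusted p = 0.0702, 0.0806, 0.0646 and 0.0763) or after cyclic loess normalization (adjusted p = 0.0565). Lmx1a, the LIM homeodomain factor that marks the roof plate and hem, had values of 7.48, 7.31, 7.67, 7.49 and 7.56 on powdered chow, against 7.58, 7.41, 7.36, 7.37 and 7.45 on pelleted chow. The diets overlapped throughout, and the difference was 0.07 (SE 0.07, limma adjusted p = 0.476) with a 95% interval of -0.09 to 0.22. Both genes lay above the lower quartile but below the median of every array, so they are among the dimmer probe sets.

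Sostdc1, which encodes a secreted antagonist of BMP and Wnt signals, changed most clearly among the 10 genes. It had values of 7.52, 7.79, 7.83, 7.67 and 7.64 in powdered chow animals 87, 88, 108, 111 and 115, against 8.27, 8.06, 8.21, 8.14 and 8.25 in pelleted chow animals 05, 07, 09, 11 and 15. Every powdered chow embryo lay below every pelleted chow embryo. The difference was -0.50 (SE 0.07, limma adjusted p = 6.13e-05), or 1.42-fold lower, and it passed the test under all 19 alternatives, with adjusted p between 1.23e-05 and 0.00129.

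Enpp2, or autotaxin, a secreted enzyme that makes the lipid signal lysophosphatidic acid, had values of 9.51, 9.40, 9.41, 9.47 and 9.43 on powdered chow, against 9.03, 9.33, 9.31, 9.42 and 9.32 on pelleted chow. Pelleted chow animal 05 was the lowest array and animal 11 lay within the powdered chow range. The difference was 0.16 (SE 0.07, limma adjusted p = 0.0746), with a 95% interval of 0.01 to 0.32. Without pelleted chow animal 11 the diets no longer overlapped and the difference passed the test, at 0.20 (adjusted p = 0.0389), and without animal 05 it was 0.10. In all, Enpp2 passed the test under 4 of 19 alternatives, array weights among them (limma adjusted p = 0.0439).

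Ttr, or transthyretin, carries thyroid hormone and retinol-binding protein and is the classic product of the choroid plexus. It had values of 12.61, 12.63, 12.43, 12.53 and 12.50 on powdered chow, against 12.38, 12.25, 12.36, 12.54 and 12.40 on pelleted chow. Pelleted chow animal 11 alone reached into the powdered chow range. The difference was 0.15 (SE 0.06, limma adjusted p = 0.0705), with a 95% interval of 0.01 to 0.29. It passed the test without pelleted chow animal 11, at 0.19 (adjusted p = 0.0218), and without powdered chow animal 108, at 0.18 (adjusted p = 0.0423). Without pelleted chow animal 11 the diets did not overlap. It also passed with an intensity trend and robust prior, with array weights and among probe sets above the median (adjusted p = 0.0326, 0.01 and 0.0379), and the difference was 0.10 after further quantile normalization (adjusted p = 0.217).

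Folr1, the folate receptor that carries folate across the choroid plexus into cerebrospinal fluid, was 8.60, 8.52, 8.43, 8.42 and 8.41 on powdered chow, against 8.56, 8.46, 8.42, 8.41 and 8.33 on pelleted chow. The diets overlapped, and the difference was 0.04 (SE 0.06, limma adjusted p = 0.662). Its 95% interval of -0.09 to 0.17 lies inside a change of 1.5-fold in either direction.

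The 2 channel genes went opposite ways. Aqp1, the water channel of the apical choroid plexus membrane, which red blood cells also carry, had values of 7.64, 7.36, 7.50, 7.55 and 7.53 on powdered chow, against 7.72, 7.82, 7.88, 7.87 and 7.78 on pelleted chow. No values overlapped, and the difference was -0.30 (SE 0.06, limma adjusted p = 0.00130), with adjusted p of 0.00486 or lower under all 18 alternatives that measured it. Of 8 measured red cell markers 2 were higher and 0 lower, and their mean ran from 6.60 to 6.75 on powdered chow and from 6.27 to 6.73 on pelleted chow. The other 6 did not pass the test, and the part of red cells in the Aqp1 difference was not tested.

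Clic6, a chloride intracellular channel family gene, had values of 7.96, 7.98, 7.59, 8.05 and 7.86 on powdered chow, against 7.52, 7.65, 7.58, 7.55 and 7.70 on pelleted chow. Powdered chow animal 108 lay among the pelleted chow values and the other 4 lay above them. The difference was 0.29 (SE 0.08, limma adjusted p = 0.0111), or 1.22-fold, and it did not pass the version of the methods' test that allows unequal variances (adjusted p = 0.0511).

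Kl, or klotho, a co-receptor for fibroblast growth factor 23 in other tissues that is also shed into cerebrospinal fluid, had values of 6.38, 6.63, 6.66, 6.77 and 6.60 on powdered chow, against 6.84, 6.70, 7.08, 6.96 and 7.00 on pelleted chow. Pelleted chow animal 07, at 6.70, was the one embryo of its diet below the highest powdered chow value. The difference was -0.31 (SE 0.08, limma adjusted p = 0.00909), or 1.24-fold lower, and it passed the test under all 18 alternatives that measured it. The gene was dim, below the median of every array.

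**Figure D3:**
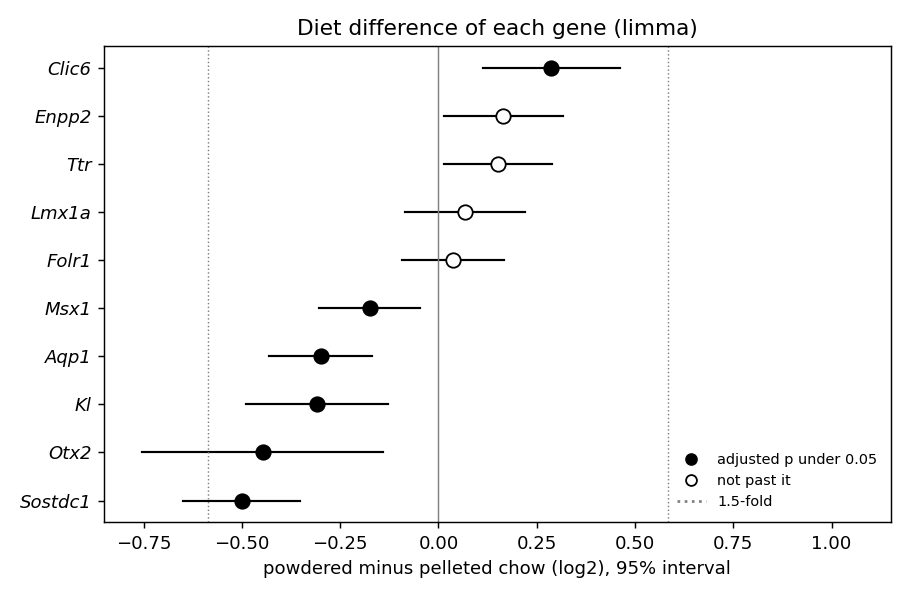
Difference of each of the 10 genes, powdered minus pelleted chow on the log2 scale (horizontal axis), with its 95% interval from limma; filled points passed an adjusted p under 0.05 and dotted lines mark 1.5-fold. The points run from -0.50 for Sostdc1 to 0.29 for Clic6, and all lie inside the dotted lines.

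The 10 genes were not all high or all low in the same embryos. In any single embryo between 2 and 7 of the 10 lay above the mean of their diet, and the mean of the 10 ran from 8.32 to 8.39 on powdered chow and from 8.39 to 8.49 on pelleted chow. Over the 10 arrays the deviations from the diet mean of the other 9 genes correlated with those of Ttr at r between -0.528 for Lmx1a and 0.322 for Clic6. The 5 probe sets most like Ttr by this measure were Crtc2, Fkbp1a, Acsf2, Nr4a3 and Gm12034, with r between 0.936 and 0.949 and rho between 0.903 and 0.976. None of them is on a list used here, but the lists hold 216 entries on an array of 21225 probe sets, so this tells little. With 10 arrays that share an array platform and so many probe sets to choose from, correlations of this height are a description only.

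Other genes of the choroid plexus epithelium also went both ways. Of 33 measured, 5 were higher, 10 were lower and 18 did not pass the test by limma, so that 45.5% were called, beside 43.1% of all probe sets, and their median difference was -0.09. Igfbp2, which binds insulin-like growth factors, averaged 10.45 ± 0.07 on powdered chow and 9.76 ± 0.07 on pelleted chow (SD, n = 5 each), a difference of 0.69 (SE 0.06, limma adjusted p = 8.55e-07). Igf2, a growth factor that the choroid plexus releases into the fluid and meninges and vessels also make, differed by -0.38 (SE 0.08, adjusted p = 0.00109, named after its values were seen). Ecrg4, a secreted precursor of the plexus, rose by 0.59 (SE 0.06), and Cgnl1, a junction protein gene, by 0.43 (SE 0.05). Slc29a4, a transporter of monoamines that neurons also use, fell by 0.41 (SE 0.08), and its value in pelleted chow animal 11, 10.82, was the highest. Among the ion transporters of fluid secretion, named after their values were seen, Slc12a2 differed by 0.22 (SE 0.07), Slc4a2 by -0.25 (SE 0.05) and Slc4a10, which neurons also express, by -0.35 (SE 0.10). Slc12a2 did not pass the test under 3 of 19 alternatives (adjusted p up to 0.0607) and Slc4a10 under 1 of 19 (adjusted p = 0.0531), while Kcnj13, a potassium channel of the plexus that was also named after its values were seen, differed by -0.02 (SE 0.08, adjusted p = 0.882).

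Of 29 measured genes of the cortical hem and roof plate, 9 were higher, 5 were lower and 15 did not pass the test by limma, a share of 48.3%, with a median difference of -0.07. Rspo3, a secreted amplifier of Wnt signals that is strong in the hem, averaged 9.12 ± 0.05 on powdered chow and 8.08 ± 0.25 on pelleted chow (SD, n = 5 each). Its values were 9.09, 9.18, 9.07, 9.11 and 9.16 on powdered chow, against 8.44, 8.19, 7.96, 7.77 and 8.05 on pelleted chow, so the lowest powdered chow embryo was well above the highest pelleted chow embryo. The difference was 1.04 (SE 0.10, limma adjusted p = 3.12e-06), or 2.06-fold. Axin2, a feedback target of Wnt signals, rose by 0.32 (SE 0.05). Other Wnt genes of this list went both ways: Wnt8b differed by 0.43 and Wnt5a by -0.19, and Lef1, at -0.23, did not pass the test. Wnt8b, Wnt5a and Lef1 were named after their values were seen. Zinc finger genes that are active along the dorsal midline and in meninges went both ways: Zic4 and Zic1 differed by 0.56 and 0.22, and Zic2 and Zic5 by -0.64 and -0.20, with the same signs and calls under the 3 further normalizations (Zic1 and Zic5 were named after their values were seen). Zic5 did not pass the test under 2 of 19 alternatives (adjusted p up to 0.0606). The count of lower genes in this list was 8 without pelleted chow animal 05 and 3 without animal 07. Of the 12 markers of meninges and fibroblasts 5 were higher (Col3a1, a difference of 0.75) and 2 lower (Slc6a13, a difference of -0.62), with a mean of 8.49 to 8.63 on powdered chow and 8.30 to 8.53 on pelleted chow, and their part in the results for midline genes was not tested.

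Cajal-Retzius neurons, early neurons that leave the hem to cover the cortex, were covered by 10 genes, of which 2 were higher and 2 lower by limma. That is a share of 40%, beside 43.1% of all probe sets. Lhx5 and Lhx1, LIM homeodomain factors of these and of diencephalic neurons, averaged 8.41 ± 0.05 and 8.18 ± 0.11 on powdered chow and 7.88 ± 0.29 and 7.84 ± 0.25 on pelleted chow (SD, n = 5 each). The differences were 0.52 (SE 0.11) and 0.34 (SE 0.10), and pelleted chow animal 05, at 7.38 and 7.41, was the lowest array for both. Without it they were 0.40 and 0.23, and limma still called both. With all 10 arrays, Lhx1 did not pass the methods' test or its version for unequal variances (adjusted p = 0.0550 and 0.0786). Calb2 and Ndnf fell by 0.32 (SE 0.08) and 0.27 (SE 0.08). Reln and Trp73 differed by -0.03 (SE 0.05, limma adjusted p = 0.722) and -0.06 (SE 0.06, limma adjusted p = 0.408) and did not pass the test. Both were named after their values were seen. The count of lower genes in this list was 4 without pelleted chow animal 05.

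The choroid plexus epithelium also carries motile cilia. Of 23 genes of multiciliated cells, 8 were higher and 3 lower by limma (47.8% called), with a median difference of 0.09. Rfx3, a factor of the cilia program, rose by 0.35 (SE 0.05), and Spef2 and Ccdc39, which build motile axonemes, by 0.35 (SE 0.06) and 0.44 (SE 0.08). Spef2 was dim, at 6.01 to 6.30 on powdered chow and 5.68 to 5.88 on pelleted chow, below the lower quartile of every array. Tppp3, a tubulin-binding protein of ciliated cells and of other brain cells, averaged 8.67 ± 0.10 on powdered chow and 9.95 ± 0.10 on pelleted chow (SD, n = 5 each), a difference of -1.28 (SE 0.07, limma adjusted p = 3.26e-08). Foxj1, the main regulator of motile cilia, differed by -0.11 (SE 0.08, adjusted p = 0.265) and did not pass the test; it too was named after its values were seen.

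Among 26 genes whose products transport, bind or receive what the 10 genes handle, 2 were higher and 8 lower by limma, a share of 38.5%, with a median difference of -0.10. The folate carriers beside Folr1 both fell: Slc19a1, the reduced folate carrier, had values of 8.91, 8.99, 8.96, 8.88 and 8.98 on powdered chow, against 9.63, 9.59, 9.57, 9.50 and 9.64 on pelleted chow, a difference of -0.64 (SE 0.05, adjusted p = 6.59e-07). Slc46a1, the proton-coupled folate transporter, differed by -0.36 (SE 0.07, adjusted p = 7.27e-04), again with no overlap between the diets. For the ligands that Ttr carries, Stra6, a receptor for retinol-binding protein, and Dio2, which activates thyroid hormone, differed by -0.38 (SE 0.09) and -0.39 (SE 0.10), and were named after their values were seen. Of 5 receptors for lysophosphatidic acid, the product of Enpp2, Lpar1 was higher and Lpar3 lower, with differences of 0.32 and -0.28, also named after their values were seen, and the other 3 did not pass the test. Fgfr1, a receptor that works with klotho, fell by 0.31 (SE 0.06). Aqp4, the water channel of astrocytes and ependyma, had values of 7.14, 7.19, 7.14, 7.25 and 6.98 on powdered chow, against 7.33, 7.98, 8.65, 8.62 and 8.56 on pelleted chow, with pelleted chow animal 05 the lowest of its diet, and a difference of -1.09 (SE 0.21, adjusted p = 8.62e-04).

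**Figure D4:**
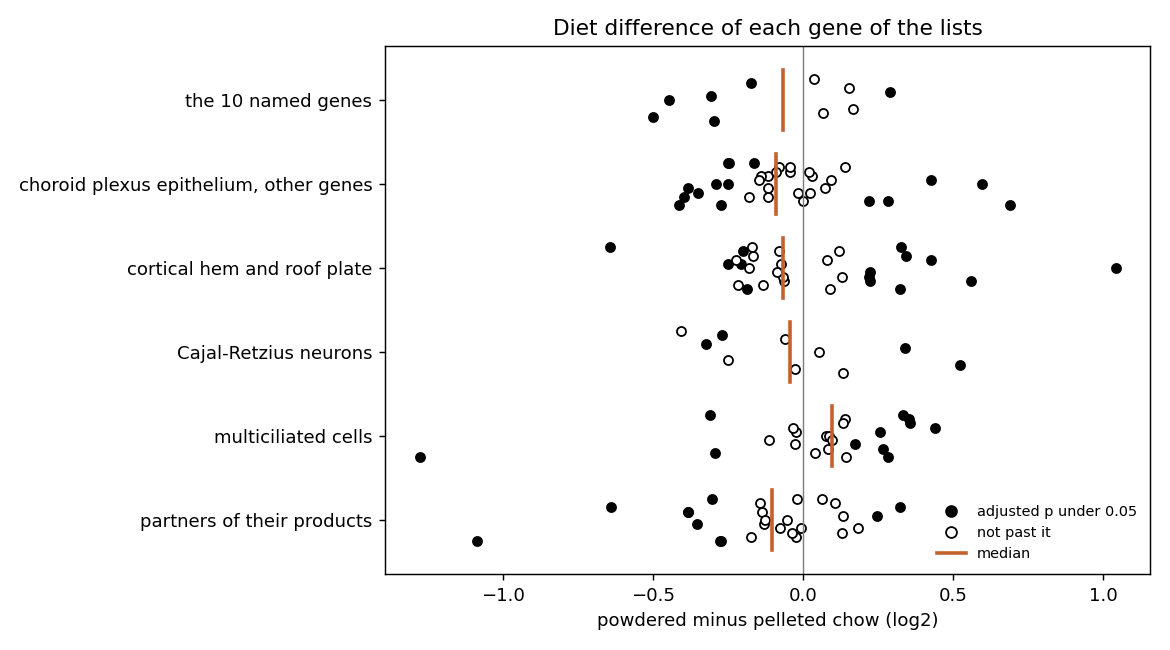
Difference of each of the 10 genes and of each gene of the 5 pathway lists, powdered minus pelleted chow on the log2 scale (horizontal axis), by list (rows); filled points passed a limma adjusted p under 0.05, open points did not, and the orange bar is the median. Filled points lie on both sides of 0 in each of these rows, and their medians run from -0.10 to 0.09.

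The tissue was checked against markers of its neighbours. The 13 telencephalon markers were measured with a mean of 10.47 to 10.54 on powdered chow and 10.19 to 10.41 on pelleted chow, and 6 were higher and 1 lower. Retina and pigment epithelium, which also express Otx2 and Ttr, had 1 of 10 markers higher (Mitf, a difference of 0.24) and 0 lower, with means of 6.31 to 6.46 on powdered chow and 6.26 to 6.40 on pelleted chow, close to the lower quartile of the arrays. Liver, the other large source of Ttr, had 0 of 8 markers higher and 1 lower (Apoa1, a difference of -0.25), with means of 6.04 to 6.33 on powdered chow and 6.12 to 6.37 on pelleted chow, and Alb, named after its values were seen, differed by -0.01. Of 8 thalamus markers 2 were higher and 2 lower, among them Gbx2 at -0.31, which was highest in pelleted chow animal 11 at 8.51. Of 8 endothelial markers 3 were higher and 2 lower, and of 9 oligodendrocyte markers 1 was higher and 4 lower. The table has no detection calls, so no marker could be called absent.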

How the data were processed

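Forebrain RNA of 10 embryos was hybridized by the authors to Affymetrix Mouse Gene ST arrays. The deposited values are log2 expression values, which the authors computed by RMA (robust multichip average, a method that subtracts background and quantile normalizes the arrays before it sums up each probe set), using version 15 of MBNI's custom definitions, which hold 1 probe set per Entrez gene. The genome build is not given in the sources used here. Of 21225 probe sets, 20768 were named through RefSeq gene IDs. The values were used without further normalization or filter, and the number of arrays limits the precision.

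Diets were compared with limma 3.58.1 in R 4.3.3 (lmFit, eBayes, no covariates, two-sided), and p-values were adjusted by Benjamini-Hochberg across the whole array, after a test on simulated data. Alternatives were the methods' t-test and Welch's version of it, another prior, array weights, 3 further normalizations, 2 filters on dim probe sets, other limits, and leaving out each array. The genes and lists were chosen with earlier results of these data known; of 219 list entries 216 were on the array. Named are the 10 genes, the 4 genes with the lowest p of each pathway list, the 2 of each marker list, and the 5 probe sets most like Ttr; others are marked as named after their values were seen. Some list genes are not reported here by name. Figures and sequence searches used Python 3.11.15.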

Additional observations from a re-analysis of the deposited data

Results flagged for a closer look

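In groups of 5 embryos, a gap between the most extreme embryo and its nearest neighbour was looked for that exceeded 0.71 of the whole range (Dixon's 95% limit). Chance flags about 1 in 20 groups, and 7 gaps were found in 106 groups of 53 genes, all 7 in pelleted chow embryos. In pelleted chow animal 05, Enpp2 was 9.03 against 9.31 to 9.42 in the other 4 (gap 0.729 of the range). Cgnl1 was 7.16 against 7.29 to 7.30 there (0.883), Lhx5 was 7.38 against 7.94 to 8.14 (0.740), Lhx1 was 7.41 against 7.91 to 7.99 (0.859) and Cnp was 8.53 against 8.76 to 8.84 (0.758). In pelleted chow animal 11, Slc29a4 was 10.82 against 10.45 to 10.54 in the other 4 (0.762), and Gbx2 was 8.51 against 8.13 to 8.20 (0.837).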

How the results depend on the processing

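Over the 185 alternative values of the 10 genes, 164 kept the direction and the call, 12 lost the call, 9 gained it and 0 reversed; of 376 values of the 4 genes with the lowest p in each pathway list, 374 kept both and 2 lost the call. The count of higher genes among the 10, which was 1, became 0 with Welch's test and at an adjusted p under 0.01, 2 with an intensity trend and robust prior, after cyclic loess or above the median brightness, and 3 with array weights. It ran from 1 to 3 when 1 array was left out. The count of lower genes, which was 5, became 3 at an adjusted p under 0.01 and 2 above the median brightness, where only 5 of the 10 genes were tested, and ran from 3 to 5 when 1 array was left out. With array weights 1 gene, Otx2, passed the limits of the methods, and limma's test against a fold change of 1.5 called 0. Genes without overlap numbered 2 to 4 when 1 array was left out. For the other epithelial genes the lower count, 10, became 4 with Welch's test and ran from 7 to 11 when 1 array was left out. For hem and roof plate the lower count, 5, became 8 with array weights and above the lower quartile, and ran from 3 to 8. For Cajal-Retzius neurons the higher count, 2, became 1 with both t-tests, and the lower count, 2, became 4 with array weights and ran from 2 to 4. For multiciliated cells the higher count, 8, became 2 above the median, where 5 genes were tested, and for the partner genes the higher count, 2, became 4 above the lower quartile. Where no cause is stated, the cause was not tested. No paired analysis was possible because the diets share no animal numbers.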
